A study of Mus musculus with 6 samples.

Results

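Mitochondrial ribosomal proteins are the nuclear-encoded proteins of the ribosome inside mitochondria, and their genes carry the symbols Mrpl for the large and Mrps for the small subunit. They were taken as every protein-coding gene of the liver count table whose symbol starts with Mrpl or Mrps followed by a number, which gave 78 of 54532 genes, 49 of the large and 29 of the small subunit, spread over 17 chromosomes. The question was how the RNA of these genes differed between livers of mice on a high-fat diet and livers of mice that also drank allantoin, a product of uric acid breakdown. The HFD group (3 libraries, replicates 1 to 3) came from wild-type male C57BL/6J mice that were 8 weeks old at the start and ate the high-fat diet for 4 weeks and then for 4 more. The HFD+allantoin group (3 libraries, replicates 4 to 6) had the same diet and received allantoin in the drinking water during the last 4 weeks. The labels name 0.06 and 0.3 mg/mL and give no dose for a single library, and the study's text names the higher dose for the sequenced group. All 6 libraries share the high-fat diet, and no chow library was analysed here. Nothing in the labels ties each library to 1 animal, so p-values measure the spread between these libraries.

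The mitochondrial ribosome, or mitoribosome, translates the few messenger RNAs that the mitochondrial genome encodes, all of them for core subunits of the respiratory chain and ATP synthase. Its ribosomal RNAs come from the mitochondrial genome, whereas its proteins are made in the cytosol from nuclear genes and imported. Some of these proteins have counterparts in the bacterial ribosome and others are found only in mitochondria. Hepatocytes are rich in mitochondria and depend on them for fatty acid oxidation, so that translation within the organelle bears on a main function of this tissue.

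The libraries held 11326372 to 14601457 counts. The mitochondrial chromosome took 36.5%, 20.2% and 17.9% of the counts in HFD replicates 1 to 3 and 7.52%, 6.92% and 11.4% in HFD+allantoin replicates 4 to 6. Expression is given as CPM, the depth-scaled read count after TMM normalization, whose factors were 0.756 to 0.951 in the HFD and 1.12 to 1.19 in the HFD+allantoin libraries. The 8 hepatocyte markers summed to 90294 to 91453 CPM in the HFD and 74320 to 103025 CPM in the HFD+allantoin libraries, so the labelled tissue was present in all of them. Most of this sum was albumin (Alb), and of the 8 markers Ttr, Apoa1 and Serpina1c were called lower and Apob and Cps1 higher. A gene was called when the adjusted p of edgeR's quasi-likelihood test was under 0.05.

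More mitochondrial ribosomal protein genes were lower than higher in the HFD+allantoin livers. Of 77 tested genes, 28 fell (36.4%), where 13.0% of all 12795 tested genes fell, and 4 rose (5.19%), where 11.3% of all tested genes rose. The remaining 45 did not pass the test. The median log2 fold change, HFD+allantoin over HFD, was -0.38 over the tested members and -0.03 over all tested genes. In 39 of the 77 genes (50.6%) all 3 HFD+allantoin values lay below all 3 HFD values, and in 8 (10.4%) all lay above, against 21.9% and 22.4% of all tested genes. An unadjusted p under 0.05 was reached by 41 members. The share of all tested genes at this threshold was not counted, so this count has no comparison. When HFD+allantoin replicate 4, 5 or 6 was left out, 12, 11 or 15 members were called lower and 0, 1 or 1 higher. These were 15.6%, 14.3% and 19.5% of the members for the lower calls, beside 5.29%, 4.27% and 6.29% of all genes then tested. Leaving out an HFD library gave 24 to 31 lower and 3 to 5 higher members. With library size as the only scaling, 7 members (9.09%) were called lower and 9 (11.7%) higher, beside 5.27% and 24.7% of all tested genes, and the members' median became 0.04 while that of all tested genes became 0.38.

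The summed level of the members showed the same difference in each library. It was 2424, 2635 and 2421 CPM in HFD replicates 1 to 3 and 1977, 1902 and 1905 CPM in HFD+allantoin replicates 4 to 6, a ratio of means of 0.773. As a share of all counts, without TMM normalization, the members held 0.183%, 0.236% and 0.230% in the HFD and 0.236%, 0.221% and 0.212% in the HFD+allantoin libraries, and the groups overlapped. As a share of the counts outside the mitochondrial chromosome they held 0.288%, 0.296% and 0.280% in the HFD and 0.255%, 0.237% and 0.240% in the HFD+allantoin libraries, and the groups did not overlap. HFD replicate 1, the library with the largest mitochondrial share, held the highest value of 18 members and the lowest of 21. HFD replicate 2 held the highest value of 29 members and the lowest of 2. The mitochondrial share and the members' summed level were both lower in the HFD+allantoin group. Within either group they did not rank the libraries alike. The part of the mitochondrial share and of these library differences in the result was not tested. In whole liver, fewer cells of a type and less RNA per cell cannot be told apart.

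**Figure D1:**
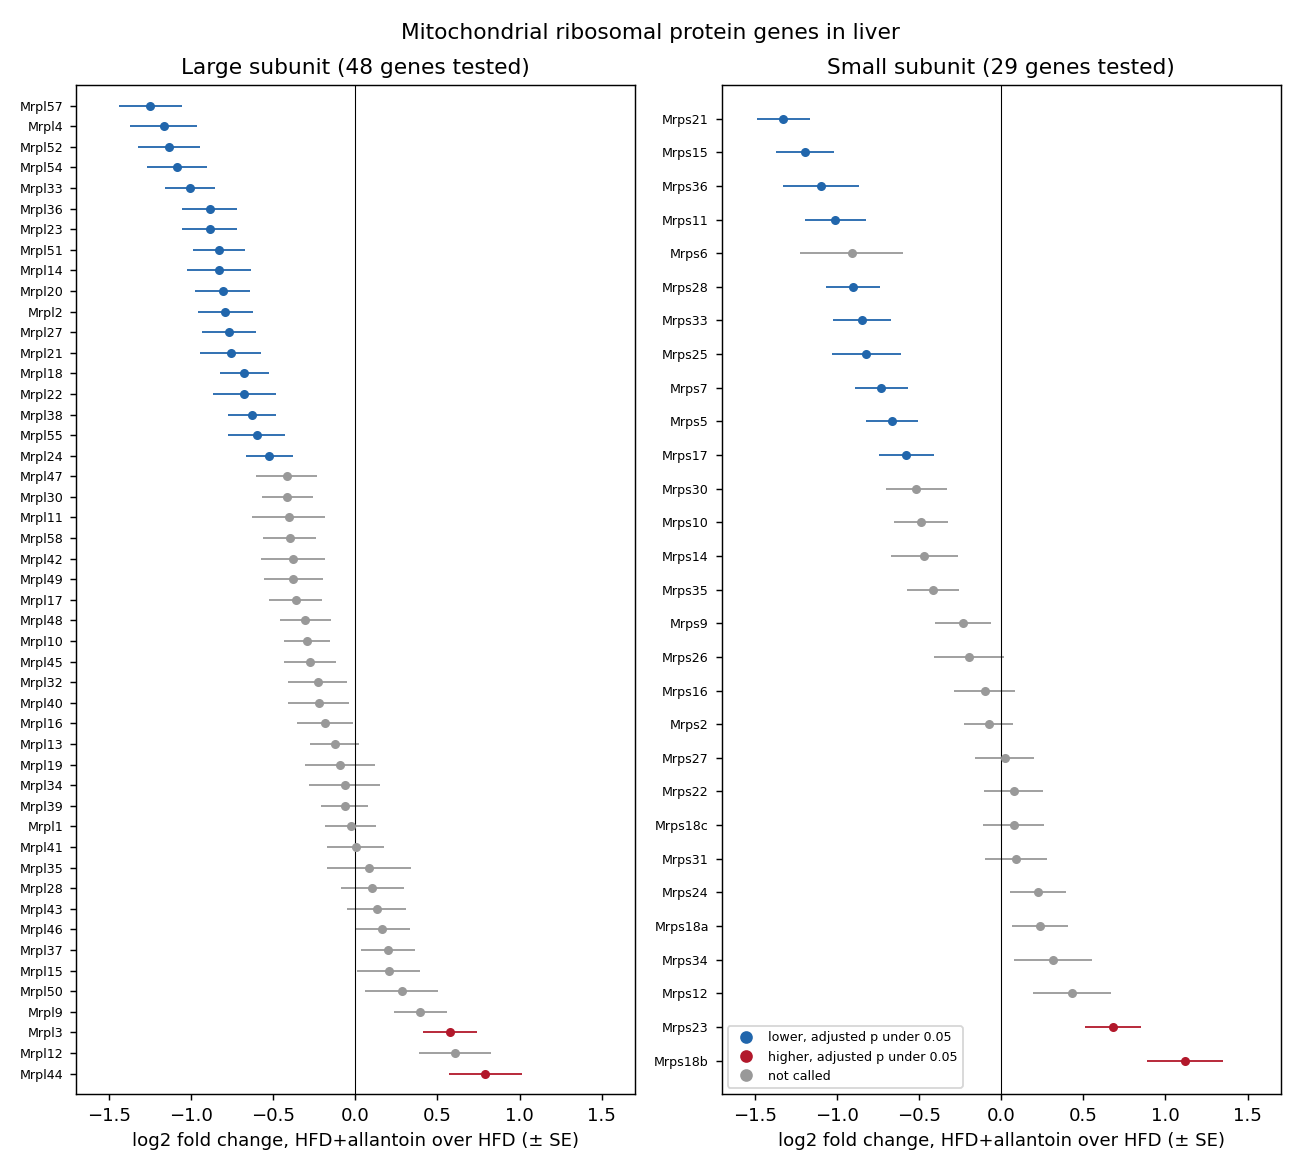
Log2 fold change, HFD+allantoin over HFD, of each tested mitochondrial ribosomal protein gene, with points for the estimate and lines for its standard error, large subunit on the left and small subunit on the right. Blue marks the 28 genes called lower and red the 4 called higher under TMM normalization, and with library size alone these counts were 7 and 9.

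Promoters of members at both ends of this range are shown to compare genes that fell with genes that rose. For each gene 90 bases before and 30 bases from the transcription start are given 5′ to 3′ on the gene's strand (RefSeq, GRCm38.p6). Capitals mark matches, on either strand, to CCGGAAG, a core letter sequence bound by ETS factors such as GABP (NRF2), or to GCGC followed by any base and TGCGC, the sequence bound by NRF1. Both factors are known regulators of nuclear genes for mitochondrial proteins. Mrpl33, Mrpl57, Mrps21 and Mrps15 were called lower under every alternative setting, and Mrpl44 and Mrps18b rose.
Mrpl33, chr5:31613861-31613980, + strand: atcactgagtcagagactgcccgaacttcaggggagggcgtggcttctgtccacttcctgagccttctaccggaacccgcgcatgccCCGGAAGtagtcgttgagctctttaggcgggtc
Mrpl57, chr14:57826149-57826268, + strand: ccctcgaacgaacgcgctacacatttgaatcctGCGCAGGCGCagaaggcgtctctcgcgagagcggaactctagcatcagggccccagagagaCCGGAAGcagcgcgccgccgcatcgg
Mrps21, chr3:95871485-95871604, - strand: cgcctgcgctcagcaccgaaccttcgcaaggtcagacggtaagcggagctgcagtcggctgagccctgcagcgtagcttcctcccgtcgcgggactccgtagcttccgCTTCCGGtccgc
Mrps15, chr4:126046838-126046957, + strand: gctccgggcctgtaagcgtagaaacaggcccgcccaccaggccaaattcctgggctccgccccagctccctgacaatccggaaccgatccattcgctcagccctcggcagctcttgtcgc
Mrpl44, chr1:79775928-79776047, + strand: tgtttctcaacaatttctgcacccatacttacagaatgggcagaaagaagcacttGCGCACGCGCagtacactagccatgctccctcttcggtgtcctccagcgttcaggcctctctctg
Mrps18b, chr17:35916411-35916530, - strand: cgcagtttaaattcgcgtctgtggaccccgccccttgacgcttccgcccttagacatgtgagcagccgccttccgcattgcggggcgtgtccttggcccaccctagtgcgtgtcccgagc
Mrpl33, Mrpl57 and Mrps21 carried an ETS match at 3 bases before, 5 bases after and 19 bases after the start, and Mrpl57 and Mrps21 also carried an NRF1 match, 57 and 91 bases before it, the latter beginning 1 base outside the stretch shown. Mrps15 carried neither in its window of 300 bases. Mrpl44, which rose, carried an NRF1 match 35 bases before the start, and Mrps18b, which rose, carried an ETS match 44 bases after the start, beyond the stretch shown. A match is a description of letters, not a site.

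Across the 75 RefSeq promoters of 69 matched members, windows of 250 bases before and 50 after the start, the ETS letters were present in 34.7%, against 8.86% of all 32851 promoters and 17.0% of the promoters of tested genes. The NRF1 letters were present in 17.3% of member promoters, against 4.60% and 9.64%. The YY1 core AAGATGGC was present in 16.0%, against 2.75% and 4.32%. The GC box GGGCGG, bound by SP1, was found in 52.0% of member promoters, fewer than the 60.0% in tested genes, and the TATA box letters TATAAA in 6.67%, against 7.95%. CCAAT was present in 40.0% of member promoters and 37.6% of those of tested genes. The 26 promoters of members that fell held the ETS letters in 38.5% and the NRF1 letters in 11.5%, the 4 promoters of members that rose held them in 3 (75.0%) and 1 (25.0%), and the 44 promoters of members that did not pass the test held them in 27.3% and 20.5%. All motifs were searched on both strands, and none of these letter sequences contains another.

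In the large subunit, 18 of 48 tested genes fell (37.5%), 2 rose (4.17%) and 28 did not pass the test. Over all tested genes 13.0% fell and 11.3% rose. The median log2 fold change of the subunit was -0.37. The genes that fell spanned log2 fold changes of -1.25 to -0.52 (folds of 0.421 to 0.696, adjusted p of 0.00403 to 0.0359). In all 18 the 3 HFD+allantoin values lay below the 3 HFD values, which selection by the test makes likely. Without HFD+allantoin replicate 4, 5 or 6, the count of large subunit genes called lower was 8, 7 or 8. Of all genes then tested, 5.29%, 4.27% and 6.29% were lower.

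Mrpl33 (ENSMUSG00000106918, chr5:31596935-31664384), a small protein with a bacterial counterpart, stood at 28.9, 30.7 and 29.8 CPM in HFD replicates 1 to 3 and at 15.5, 14.3 and 14.8 CPM in HFD+allantoin replicates 4 to 6. Every HFD+allantoin value was about the same and well under every HFD value, with a log2 fold change of -1.01 (SE 0.15, adjusted p = 0.00403). A processed transcript, Gm43809, shares 261 exon bases with it on the same strand. Mrpl57 (ENSMUSG00000021967, chr14:57826234-57829296), a protein found only in mitochondrial ribosomes, stood at 55.2, 36.7 and 38.6 CPM in HFD and at 17.9, 18.9 and 18.2 CPM in HFD+allantoin. HFD replicate 1 was the highest, and the groups did not overlap (log2 fold change -1.25, SE 0.19, adjusted p = 0.00444). Mrpl4 (ENSMUSG00000003299, chr9:21002738-21008839), whose bacterial counterpart is an early assembly protein that reaches into the exit tunnel, stood at 50.7, 38.9 and 31.0 CPM in HFD and at 18.3, 18.5 and 16.9 CPM in HFD+allantoin. HFD replicate 1 was again the highest, and the log2 fold change was -1.17 (SE 0.20, adjusted p = 0.00591).

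Mrpl52 and Mrpl54 are both proteins without a bacterial counterpart. Mrpl52, whose transcript of 418 bases is the shortest of the members, stood at 50.8, 38.7 and 35.6 CPM in HFD and at 20.5, 16.4 and 20.1 CPM in HFD+allantoin (log2 fold change -1.13, SE 0.19, adjusted p = 0.00542). Mrpl54 stood at 35.3, 29.5 and 25.3 CPM and at 15.9, 13.6 and 13.0 CPM (log2 fold change -1.08, SE 0.19, adjusted p = 0.00566). In both the HFD values spread more widely than the HFD+allantoin values and did not overlap them. Mrpl23, a protein at the exit of the peptide tunnel, stood at 43.3, 46.8 and 37.4 CPM and at 25.3, 20.1 and 23.6 CPM (log2 fold change -0.89, SE 0.17, adjusted p = 0.00829). A processed pseudogene, Mrpl23-ps1, matches 540 of its bases without a difference, so that reads could be assigned to either. The other genes that fell in the large subunit were Mrpl2, Mrpl14, Mrpl18, Mrpl20, Mrpl21, Mrpl22, Mrpl24, Mrpl27, Mrpl36, Mrpl38, Mrpl51 and Mrpl55.

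Mrpl44 and Mrpl3 rose. Mrpl44 (ENSMUSG00000026248, chr1:79776018-79781445), a protein with a ribonuclease III fold that is found only in mitochondria, stood at 7.97, 11.5 and 12.9 CPM in HFD and at 17.6, 21.5 and 16.9 CPM in HFD+allantoin (log2 fold change 0.79, SE 0.22, adjusted p = 0.0325). HFD replicate 1 was the lowest, and without it the call was lost. Mrpl3, whose bacterial counterpart lies close to the peptidyl transferase center where peptide bonds are formed, stood at 12.2, 13.7 and 12.3 CPM and at 19.1, 19.2 and 18.7 CPM (log2 fold change 0.57, SE 0.16, adjusted p = 0.0335). Within each group its values lay close together, and the groups did not overlap. Both calls were lost without any one of the HFD+allantoin libraries. An annotated transcript, Gm38077, shares 248 exon bases with Mrpl3 on the same strand, and Wdfy1 shares 126 with Mrpl44 on the opposite strand.

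In the small subunit, 10 of 29 tested genes fell (34.5%), 2 rose (6.90%) and 17 did not pass the test. Over all tested genes 13.0% fell and 11.3% rose. The median log2 fold change of the subunit was -0.41. The genes that fell spanned log2 fold changes of -1.33 to -0.58 (folds of 0.399 to 0.671, adjusted p of 0.00292 to 0.0354). In all 10 the groups did not overlap, which selection by the test makes likely. Without HFD+allantoin replicate 4, 5 or 6, the count of small subunit genes called lower was 4, 4 or 7. Of all genes then tested, 5.29%, 4.27% and 6.29% were lower.

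Mrps21 (ENSMUSG00000054312, chr3:95862634-95871519), a short protein with a bacterial counterpart, had the most negative log2 fold change of the tested members. It stood at 55.8, 45.3 and 44.6 CPM in HFD and at 19.1, 19.9 and 19.0 CPM in HFD+allantoin (log2 fold change -1.33, SE 0.16, adjusted p = 0.00292). The HFD+allantoin values were nearly equal and less than any HFD value by a wide margin, and a processed pseudogene, Gm6181, matches 264 bases at 97.3% identity. Mrps15 (ENSMUSG00000028861, chr4:126046925-126055532), an RNA-binding protein of the subunit's platform region in bacteria, stood at 41.9, 46.3 and 33.5 CPM and at 18.4, 18.3 and 16.5 CPM (log2 fold change -1.19, SE 0.17, adjusted p = 0.00396). Mrps28, related to part of a bacterial protein that binds messenger RNA, stood at 22.4, 24.2 and 25.0 CPM and at 11.5, 13.1 and 13.6 CPM (log2 fold change -0.90, SE 0.16, adjusted p = 0.00714). HFD+allantoin replicate 4 was the lowest for Mrps28 and the highest for Mrps15, and no HFD value reached the HFD+allantoin range in either gene.

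Mrps33, found only in mitochondria, stood at 28.7, 32.5 and 24.5 CPM in HFD and at 14.1, 16.9 and 16.7 CPM in HFD+allantoin (log2 fold change -0.84, SE 0.18, adjusted p = 0.0109). Mrps25 has the longest principal transcript of the small subunit, 6073 bases, and stood at 12.8, 13.5 and 17.2 CPM and at 9.46, 7.69 and 7.56 CPM (log2 fold change -0.82, SE 0.21, adjusted p = 0.0231). Neither gene overlapped between the groups, and both share sequence with other entries, Mrps33 with the pseudogene Gm5776 and Mrps25 with Nr2c2, an opposite-strand gene covering 4590 of its exon bases. The other small subunit genes that fell were Mrps5, Mrps7, Mrps11, Mrps17 and Mrps36.

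Mrps18b and Mrps23, proteins of the small subunit that bacteria lack in this form, rose. Mrps18b (ENSMUSG00000024436, chr17:35910379-35916389) stood at 4.59, 6.91 and 5.02 CPM in HFD and at 12.6, 11.2 and 12.1 CPM in HFD+allantoin (log2 fold change 1.12, SE 0.23, adjusted p = 0.0110). Its mean in HFD, 5.50 CPM, was the lowest of the tested members, and every HFD+allantoin value lay above every HFD value. An antisense gene, Gm16279, shares 638 of its exon bases, and the counting is not stated to use strand, so reads of the pair cannot be told apart. Mrps23 stood at 10.4, 10.7 and 12 CPM and at 19.0, 17.0 and 17.1 CPM (log2 fold change 0.68, SE 0.17, adjusted p = 0.0227). Its call was lost without any one HFD+allantoin library, and that of Mrps18b without replicate 4.

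**Figure D2:**
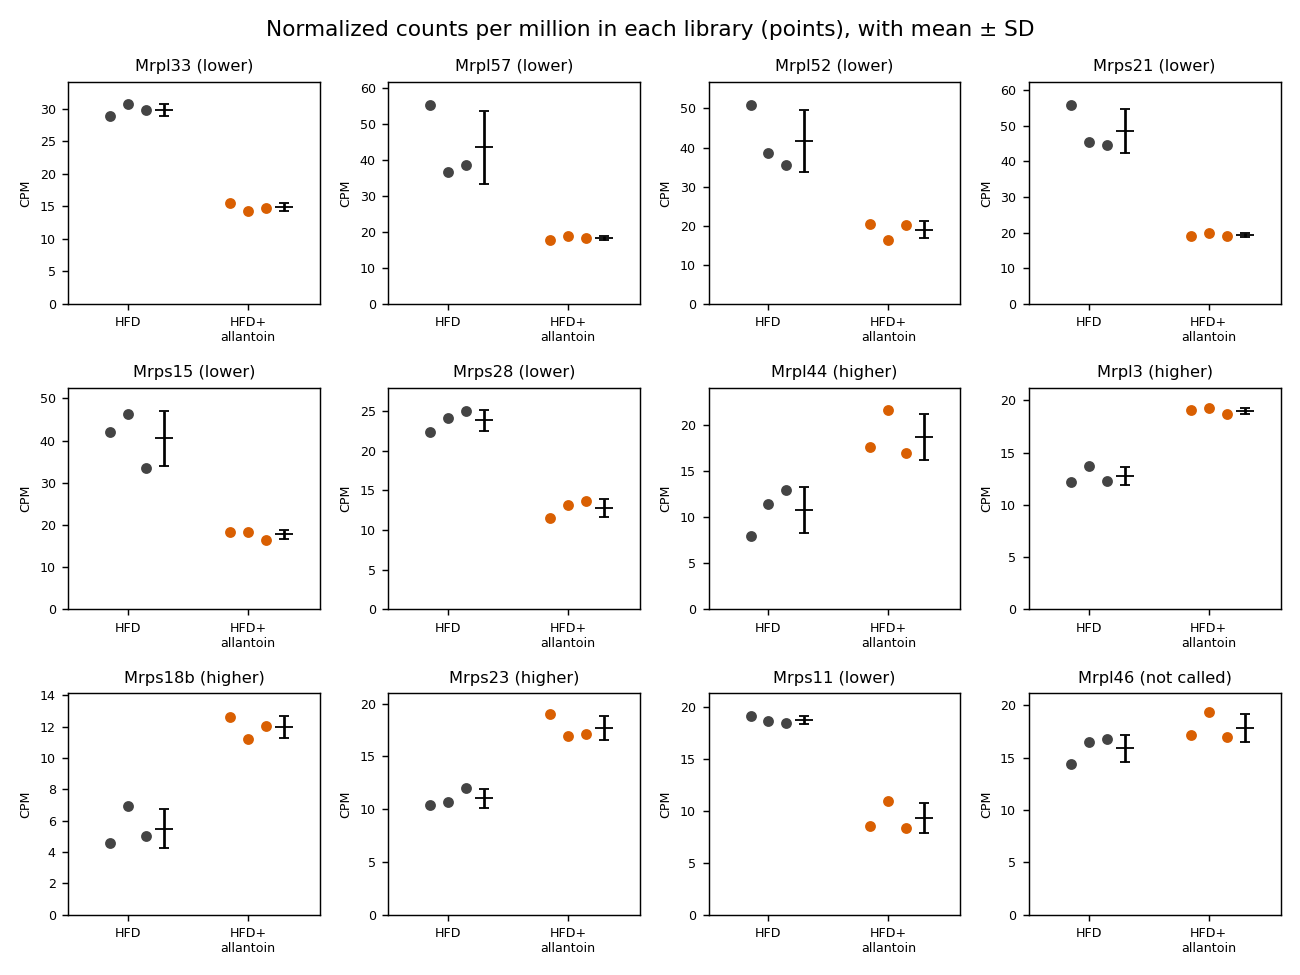
CPM in each library (points) for 12 members, with the mean and SD (n = 3) of each group beside them, HFD in gray and HFD+allantoin in orange. All but Mrpl46, the neighbor of Mrps11, were picked from the called members, which makes a lack of overlap likely. The groups did not overlap in any of the 12, Mrpl46 included, where the difference was not called. Of all tested genes, 21.9% lay below and 22.4% above without overlap.

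Mammals have 3 genes related to the bacterial protein S18, and 1 of them was called. Mrps18b rose, Mrps18a stood at 13.5, 14.9 and 14.0 CPM in HFD and at 16.9, 18 and 15 CPM in HFD+allantoin (log2 fold change 0.24, adjusted p = 0.337), and Mrps18c showed a log2 fold change of 0.08 (adjusted p = 0.796). Neither Mrps18a nor Mrps18c passed the test, and the differences among the 3 genes were not tested. Without HFD replicate 2 the value of Mrps18c was -0.02. In structures of the mitoribosome, Mrps18a and Mrps30 sit in the large subunit despite their symbols, and Mrps36 is a subunit of the 2-oxoglutarate dehydrogenase complex. Mrps30 stood at 17.6, 24.3 and 22.8 CPM and at 16.3, 15.3 and 13.7 CPM (log2 fold change -0.51, adjusted p = 0.0725). Mrps36, with 4 near-identical pseudogenes, fell from 8.73, 11.95 and 11.7 CPM to 5.28, 4.55 and 5.33 CPM (log2 fold change -1.10, SE 0.23, adjusted p = 0.0118). With the subunits divided by structure and Mrps36 left out, 18 of 50 large subunit genes fell with a median of -0.37, and 9 of 26 small subunit genes fell with a median of -0.32.

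The summed levels of both subunits were lower in HFD+allantoin, while their ratio overlapped between the groups. Large subunit genes summed to 1660, 1785 and 1648 CPM in the HFD libraries and to 1353, 1297 and 1307 CPM in the HFD+allantoin libraries. Small subunit genes summed to 765, 850 and 772 CPM and to 624, 606 and 598 CPM. The ratio of the large to the small sum was 2.17, 2.10 and 2.13 in the HFD and 2.17, 2.14 and 2.19 in the HFD+allantoin libraries, so the sums did not overlap between the groups and the ratio did.

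Genes of several functional regions of the ribosome were among those that fell. None of the 3 proteins of the stalk that recruits translation factors was called: Mrpl12 stood at 28.1, 49.9 and 43.6 CPM in HFD and at 66.9, 59.5 and 58.9 CPM in HFD+allantoin (log2 fold change 0.61, adjusted p = 0.0704), Mrpl10 showed a log2 fold change of -0.30 (adjusted p = 0.157) and Mrpl11 one of -0.41 (adjusted p = 0.208). Under library size scaling the value of Mrpl10 was 0.12, and Mrpl12 was called higher (0.999, adjusted p = 0.0245). Mrpl12 was also called higher with the length and GC trend removed (0.91, adjusted p = 0.0187). In these settings 24.7% and 10.2% of all genes were called higher. All 6 genes for proteins around the exit of the peptide tunnel had log2 fold changes below 0. So did 55 of the 77 tested members and 6625 of all 12795 tested genes. With library size only, 3 of the 6 and 35 of the 77 were below 0. Mrpl17 (0.065), Mrpl45 (0.15) and Mrpl47 (0.0015) were then above it. Of the 6, Mrpl22, Mrpl23 and Mrpl24 fell. Near the peptidyl transferase center, Mrpl2 and Mrpl27 fell, Mrpl3 rose and Mrpl16 did not pass the test. In the central protuberance 1 of 5 fell, Mrpl38. Of 3 proteins at the decoding site and the entry of the messenger RNA, Mrps5 fell, and Mrps12 and Mrps24 had log2 fold changes of 0.43 (adjusted p = 0.216) and 0.23 (adjusted p = 0.357). Each region holds few genes, and 36.4% of the tested members and 13.0% of all tested genes fell, while 5.19% and 11.3% rose. Differences between regions were not tested.

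Genes counted as having a bacterial counterpart numbered 46 and include Mrps18c, while Mrps18a and Mrps18b, relatives that have diverged from S18, and Mrps36 were left out of them. Of the 46, 20 fell (43.5%) and 1 rose, with a median log2 fold change of -0.44. Of 30 other tested genes, among them Mrps18a and Mrps18b but not Mrps36, 7 fell (23.3%) and 3 rose, with a median of -0.21. The shares of all tested genes were 13.0% lower and 11.3% higher, with a median of -0.03. With Mrps18a and Mrps18b moved to the first group, a division made after the data were seen, 20 of 48 fell and 2 rose (median -0.41), and 7 of 28 fell and 2 rose (median -0.25). The genes with a counterpart had the shorter transcripts, with a median of 1190.5 bases against 1424 bases. With the length and GC trend removed, the median log2 fold changes with and without a counterpart were -0.32 and -0.08. The median of all genes in that fit was -0.05. The difference between these groups of genes was not tested.

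The members were expressed at moderate levels. Mean levels over the 6 libraries ran from 7.93 to 69.1 CPM with a median of 27.0, and a tested member had 42 to 1005 counts in a library. Per kilobase of transcript, Mrpl14 was the highest at 117 CPM per kb in HFD and 65.7 in HFD+allantoin, followed in HFD by Mrpl52 (99.8 and 45.5), Mrps21 (99.5 and 39.7) and Mrpl42 (86.3 and 66.5). Of these 4, the first 3 fell and Mrpl42 was not called. The lowest were Mrpl19 (2.10 and 1.97 CPM per kb), Mrps25 (2.39 and 1.36) and Mrpl3 (3.21 and 4.78). Among members that were not called, Mrpl17 and Mrpl30 had the highest CPM in the large subunit and Mrps24 and Mrps10 in the small. Mrpl17, with the longest transcript (7300 bases), showed a log2 fold change of -0.36 (adjusted p = 0.132), Mrpl30 one of -0.41 (adjusted p = 0.0849) and Mrps10 one of -0.49 (adjusted p = 0.0604). Of the 45 genes that were not called, 11 had all HFD+allantoin values below all HFD values and 4 above. Over all tested genes, called ones included, these shares were 21.9% and 22.4%. Mrpl53 had 0 counts in every library and was not tested. Its transcript of 695 bases lies entirely within exons of Gm42688 on the same strand, which had 2 to 8 counts per library.

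Short transcripts were lower in the HFD+allantoin libraries in general, and the members are short. The principal transcripts of the members had a median length of 1302 bases, against 2853 bases over all tested genes. Of 11 members up to 750 bases, 8 fell and none rose, with a median log2 fold change of -0.89, where all tested genes of this length had a median of -0.68 and 35.8% of them fell. Above this and up to 1000 bases, 6 of 13 members fell (median -0.60), against 30.8% of all genes (median -0.49). Above 1000 and up to 1500 bases, 8 of 22 fell and 3 rose (median -0.20), against 21.1% lower (median -0.24). Over 1500 bases, 6 of 31 fell and 1 rose (median -0.30), against 9.62% lower (median 0.04). The members' median thus lay below that of all genes of like length in each of these classes but the one above 1000 and up to 1500 bases, where it lay slightly above.

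**Figure D3:**
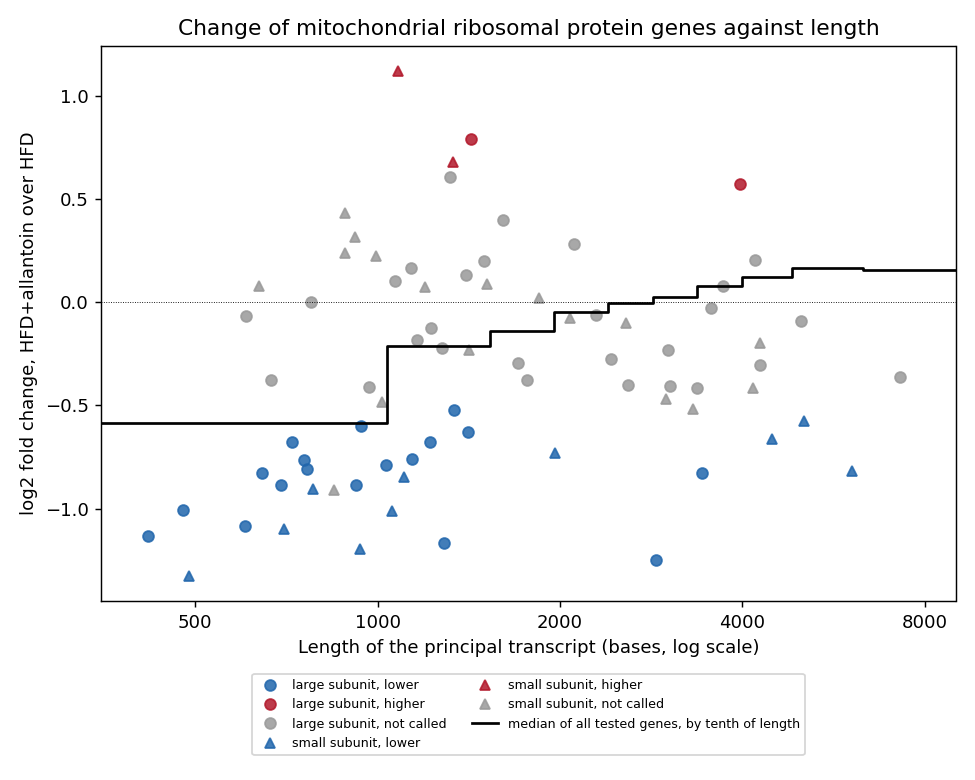
Log2 fold change, HFD+allantoin over HFD, against the length of the principal transcript in bases on a log axis, with circles for large and triangles for small subunit genes and a stepped line for the median of all tested genes in length classes of equal gene number. Genes that fell are frequent among the short transcripts, and the line rises from -0.59 in the shortest class to 0.16 in the longest.

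The relation with length was described for each subunit, and the difference between them was not tested. Across large subunit genes Spearman's rho of log2 fold change with length was 0.43 (n = 48), across small subunit genes 0.04 (n = 29) and across all tested genes 0.24 (n = 12787). These points share the same 6 libraries, and the values are descriptions across genes, which are not independent replicates. When each library's trend with transcript length and GC content was removed before the test, 22 members (28.6%) were lower and 8 (10.4%) higher, and the members' median became -0.30. Of all genes in this fit 12.1% were lower and 10.2% higher, so the share of members that rose was then near that of all genes. In the large subunit 6 of the 18 genes that fell kept their call, and in the small subunit 9 of 10. Mrpl33, Mrpl57, Mrpl4, Mrps21 and Mrps15 were among those that kept it, and Mrpl52, Mrpl54, Mrpl23 and Mrps28 lost it. Genes that became higher were Mrpl12, Mrps12, Mrps18a, Mrps24 and Mrps34, while Mrpl3 lost its call. Genes that became lower were Mrpl17, Mrpl47, Mrpl48, Mrpl58, Mrps14, Mrps30 and Mrps35. Which transcript of a gene was expressed was not measured here, and the principal one can be long, with 2877 bases for Mrpl57. With the median length over a gene's transcripts in its place, an alternative chosen after the data were seen, 27 members were lower, 22 of them among the 28, and 6 were higher.

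**Figure D4:**
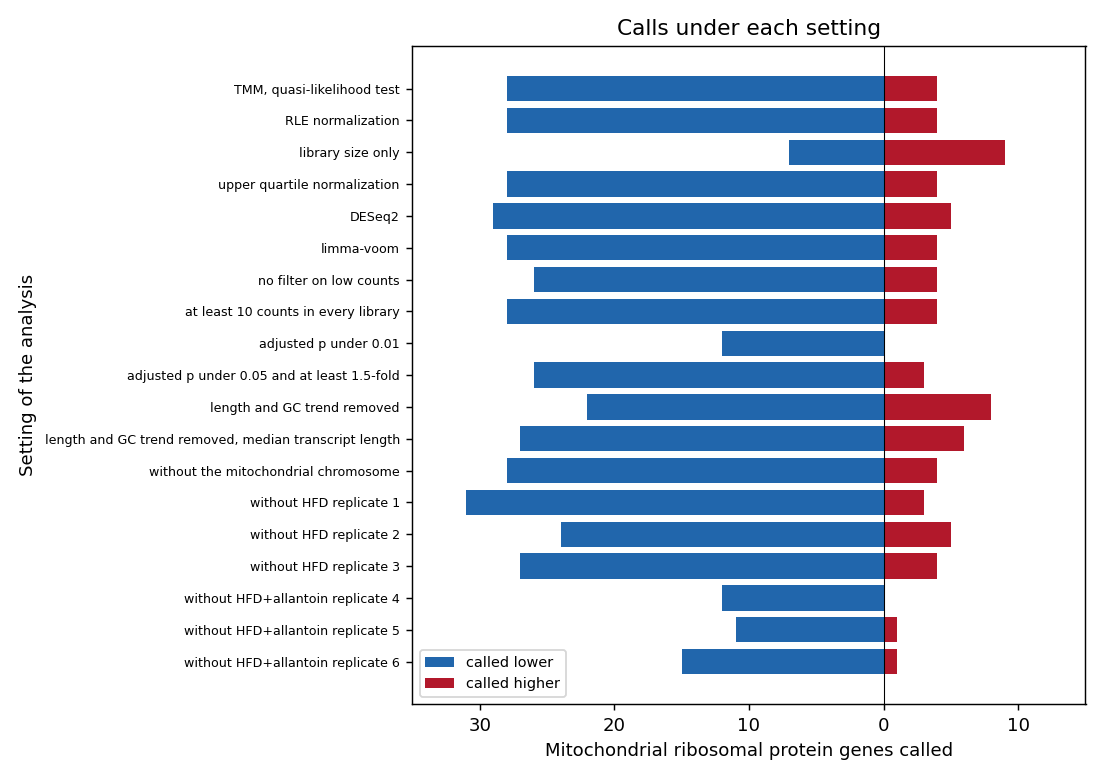
Number of mitochondrial ribosomal protein genes called lower (blue, to the left) and higher (red, to the right) under each setting, from 77 tested with the TMM and quasi-likelihood setting at the top. Counts were 22 to 31 lower under most settings and fell to 7 with library size only, 12 at an adjusted p under 0.01 and 11 to 15 without one of the HFD+allantoin libraries.

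A set of 5 members was called lower under all 18 alternatives that recount the calls, and these were Mrpl33, Mrpl57, Mrpl4, Mrps21 and Mrps15. With library size only, 7 of the 28 lower calls were kept, and Mrpl23, Mrps28, Mrps11, Mrps33, Mrps36 and Mrps25 were among those lost. The call was also lost for Mrpl23 without HFD+allantoin replicate 5, for Mrps33 and Mrps36 without replicate 4 or 5, and for Mrps25 without any 1 of replicates 4 to 6. No member was called higher under all of them. A group of 34 members had transcripts that neither overlap exons of another gene nor match another gene at 95% identity over 200 bases. Of these, 11 fell (32.4%) and 1 rose (2.94%), with a median log2 fold change of -0.25. The 43 tested members with such sharing held 17 that fell (39.5%) and 3 that rose (6.98%), with a median of -0.40. Beside them, 13.0% of all tested genes fell and 11.3% rose.

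Some members share their promoter region with a neighbor on the opposite strand. Of the 78, 22 (28.2%) start within 1000 bases of the start of a protein-coding gene that runs the other way, against 7.41% of 21951 protein-coding genes. Of these 22, 7 fell (31.8%) and 1 rose (4.55%), where 38.2% of the other tested members fell and 5.45% rose. Among their 19 tested neighbors that are not members, 3 fell (15.8%), Mitd1 (log2 fold change -0.89), Psma2 (-0.52) and Hira (-0.95), and none rose. Over all tested genes 13.0% fell and 11.3% rose, so the share of neighbors that fell was near that of all genes. The member partners of these neighbors, Mrpl30, Mrpl32 and Mrpl40, were not called.

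Mrps11 and Mrpl46 form such a pair within the family, with starts 30 bases apart in GENCODE. The 41 bases between their RefSeq starts, shown because both genes are read outward from them, held neither an ETS nor an NRF1 match.
Mrpl46 and Mrps11, chr7:78783090-78783130, + strand: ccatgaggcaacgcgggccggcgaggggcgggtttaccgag
Mrps11, a protein of the small subunit's platform, stood at 19.2, 18.7 and 18.5 CPM in HFD and fell to 8.58, 11 and 8.37 CPM in HFD+allantoin (log2 fold change -1.01, SE 0.19, adjusted p = 0.00756). Mrpl46, a protein of the central protuberance, stood at 14.4, 16.5 and 16.8 CPM and at 17.2, 19.3 and 17.0 CPM (log2 fold change 0.16, SE 0.17, adjusted p = 0.503). Their ratio, Mrps11 to Mrpl46, was 1.33, 1.13 and 1.10 in the HFD and 0.5, 0.569 and 0.492 in the HFD+allantoin libraries, without overlap and independent of the scaling of the libraries. They share 173 exon bases on opposite strands.

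Other genes of mitochondrial translation were counted in the same fit, and their difference from the members was not tested. Of 5 mitoribosome proteins without an Mrp symbol, Aurkaip1 fell from 84.2, 96.8 and 78.5 CPM to 62.2, 57.9 and 54.1 CPM (log2 fold change -0.58, adjusted p = 0.0297), and 4 did not pass the test. The call of Aurkaip1 was lost with library size only and without HFD replicate 2 or any 1 of the HFD+allantoin libraries. These were Dap3, a GTP-binding protein of the small subunit (log2 fold change 0.08, and -0.13 with the length and GC trend removed), Ptcd3 (0.53, adjusted p = 0.0562), Chchd1 (0.47) and Gadd45gip1 (-0.36, and 0.061 with library size only). Of 26 genes for mitoribosome assembly and ribosomal RNA modification, 1 fell (3.85%) and 2 rose (7.69%), with a median of -0.04. Over all tested genes 13.0% fell and 11.3% rose. Mrm3, a methyltransferase of the large ribosomal RNA, fell from 10.6, 11.5 and 10.03 CPM to 4.55, 4.79 and 4.39 CPM (log2 fold change -1.22, SE 0.22, adjusted p = 0.00632). Trub2, a pseudouridine synthase, showed a log2 fold change of 0.82 (adjusted p = 0.0330), and Fastkd2, an RNA-binding assembly factor, one of 0.92 (adjusted p = 0.0450). Without HFD replicate 2 or any 1 of the HFD+allantoin libraries Trub2 was not called.

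Of 15 translation factors and related proteins, Lrpprc, Slirp and Oxa1l among the latter, none fell and 3 rose (20%), with a median of 0.17. Among all tested genes 13.0% fell and 11.3% rose. Taco1, an activator of cytochrome c oxidase subunit I translation, rose from 3.06, 5.43 and 3.76 CPM to 18.1, 17.3 and 14.1 CPM (log2 fold change 2.01, SE 0.26, adjusted p = 0.00319). Gfm1, the elongation factor that moves the ribosome along, rose from 26.7, 33.7 and 41.4 CPM to 62.2, 69.8 and 72.8 CPM (log2 fold change 1.01, SE 0.19, adjusted p = 0.00821). The third was Mtrf1, a release factor (log2 fold change 1, adjusted p = 0.0470). Of 17 mitochondrial aminoacyl-tRNA synthetases, which charge the transfer RNAs, Tars2 fell (log2 fold change -0.93, adjusted p = 0.00844), Iars2 rose (0.73, adjusted p = 0.0194) and 15 did not pass the test. Tars2 lost its call without HFD+allantoin replicate 5, and Iars2 without any 1 of replicates 4 to 6. The ribosomal RNAs of the particle, which the mitochondrial genome encodes, fell further than any tested member. The small subunit RNA mt-Rnr1 stood at 4330.3, 2353.8 and 2576.4 CPM in HFD and at 752, 595 and 638 CPM in HFD+allantoin (log2 fold change -2.22, SE 0.27, adjusted p = 0.00287). The large subunit RNA mt-Rnr2 stood at 7092.3, 3959.7 and 5355.5 CPM and at 1336.9, 1246.5 and 1318.6 CPM (log2 fold change -2.07, SE 0.24, adjusted p = 0.00258). In both RNAs the HFD values lay far above the HFD+allantoin values, with HFD replicate 1 the highest. The library protocol is an mRNA kit, so these values are what such a library retained.

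**Figure D5:**
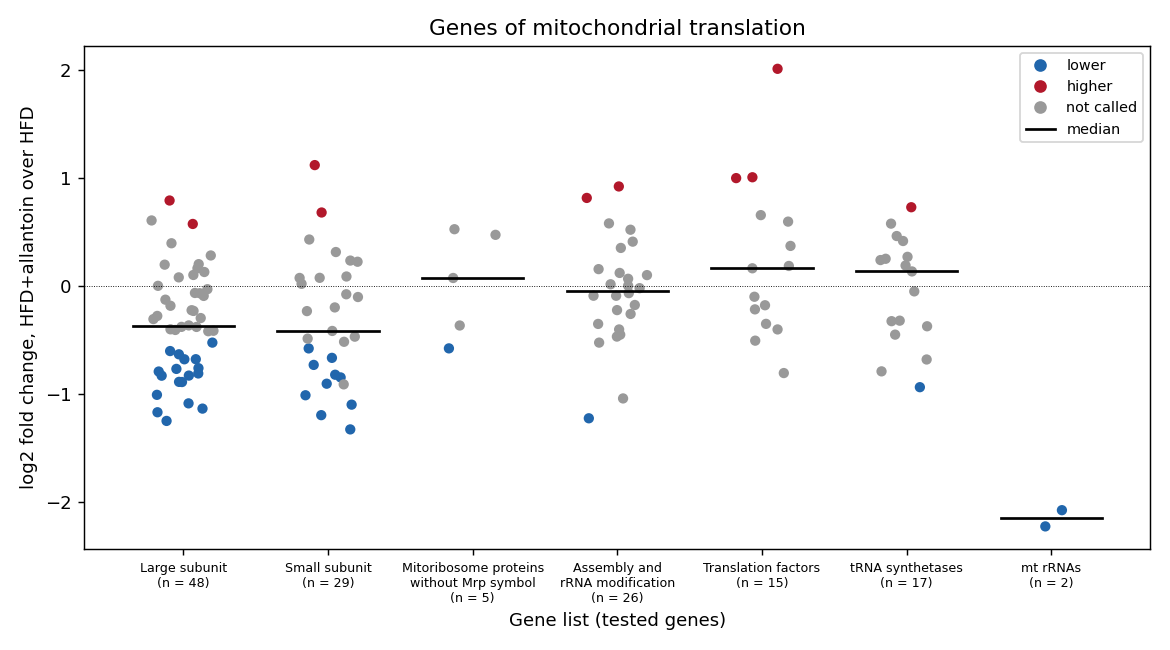
Log2 fold change, HFD+allantoin over HFD, of tested genes in lists of mitochondrial translation, 1 point per gene with the median as a line, blue for genes called lower and red for higher. The medians of the subunits under TMM normalization were -0.37 and -0.41. They lie below those of the assembly genes (-0.04), translation factors and related proteins (0.17) and tRNA synthetases (0.14). With library size alone the medians of the subunits were 0.053 and -0.0060. That of all tested genes then moved from -0.03 to 0.38, and the other lists are not given on that scale.

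For comparison, 13.0% of all tested genes fell and 11.3% rose. Of 75 cytosolic ribosomal protein genes, 35 fell (46.7%) and 3 rose (4%), with a median of -0.46 and a median length of 878 bases. Of 78 nuclear genes of the respiratory chain and ATP synthase, 43 fell (55.1%) and 5 rose (6.41%). Their median was -0.59 and their median length 787 bases. With the length and GC trend removed the medians of these 2 lists were -0.16 and -0.22, and that of the members was -0.30. The differences between these lists and the members were not tested.

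Markers of other liver cell types also differed between the groups. The 7 macrophage markers summed to 105 to 248 CPM in HFD and 298 to 336 CPM in HFD+allantoin, with 3 called higher. The 7 stellate cell markers summed to 128 to 189 and 314 to 371 CPM, with 6 called higher. The 6 endothelial markers summed to 69.1 to 132 and 116 to 183 CPM, with none called. The 5 adipocyte markers summed to 78.1, 254 and 60.2 CPM in HFD replicates 1 to 3 and to 35.7 to 82.2 CPM in HFD+allantoin. Cholangiocyte markers ranged from 34.3 to 159 and from 21.7 to 76.7 CPM, erythroid markers from 290 to 1264 and from 772 to 966 CPM, and lymphocyte markers from 2.68 to 5.83 and from 2.56 to 5.42 CPM. The part of these differences in the members' result was not tested.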

How the data were processed

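The data are 6 mouse liver mRNA libraries, sequenced on an Illumina HiSeq after preparation with a SMARTER mRNA kit. The authors deposited raw read counts per gene, made from filtered reads, with Ensembl identifiers for 54532 of 54961 entries. The submitters' processing notes name the builds GRCm38 and mm10, and the aligner and counter are not given in the sources used here. The 429 entries without an identifier held 0.197% to 0.306% of the counts and were not used. Symbols, positions and transcripts came from GENCODE M21, in which 54495 identifiers were found. The length of a gene is that of its principal transcript.

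Counts were tested with the two-sided quasi-likelihood test of edgeR 4.0.16 (R 4.3.3), after filterByExpr and TMM normalization, with group as the only term, and p-values were adjusted over 12795 genes by Benjamini and Hochberg's method. The smallest p of an exact permutation test between 3 and 3 libraries is 0.1. Depth was 11326372 to 14601457 counts per library. Alternatives, 19 in all, were other normalizations, DESeq2 1.42.0, limma-voom (limma 3.58.1), other filters and thresholds, removal of length and GC trends (splines with 5 degrees of freedom), leaving out the mitochondrial chromosome or each library, and subunits by structure. Near-identical transcripts were searched with BLAST 2.17.0. On data simulated for this comparison (12614 genes, 3 simulations), the procedure recovered 497 of 593 changed genes (83.8%), and 31 of 528 calls (5.87%) were false. Every changed gene was simulated with the same size of fold change, which was larger than that of any tested member. The 83.8% is the recovery at that size only. Recovery at the log2 fold changes seen in the members was not tested.

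The members, gene lists and tests were chosen with earlier results of these data known, and the lists were written from general knowledge. Genes named with their values are, per subunit, the 6 called members with the smallest p in the prevailing direction, every member called the other way, the 2 highest members not called, the longest and shortest, the members of the stalk, S18 and structure lists, and, per list of other genes, the 2 called genes with the smallest p, the mitochondrial ribosomal RNAs and the mitoribosome proteins without an Mrp symbol. Mrpl46, Mrps12, Mrpl14, Mrpl42, Mrpl19, Fastkd2, Mtrf1, Mitd1, Psma2 and Hira were named after their values were seen.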

Additional observations from a re-analysis of the deposited data

How the results depend on the processing

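RLE and upper-quartile normalization, DESeq2, limma-voom, both count filters, the 1.5-fold minimum and leaving out the mitochondrial chromosome gave 26 to 29 members lower and 3 to 5 higher. Scaling by library size only gave 7 lower (5 large, 2 small) and 9 higher, with medians of 0.040 over the members, 0.053 over the large and -0.0060 over the small subunit, and all tested genes shifted to a median of 0.38. The members' median minus that of all tested genes was then -0.34, against -0.35 with TMM normalization. An adjusted p under 0.01 gave 12 lower (8 large, 4 small) and 0 higher by edgeR. With the length and GC trend removed, 10 large subunit genes were lower, 8 members were higher, and the median of the large subunit was -0.28. Leaving out 1 library at a time gave 11 to 31 members lower, 0 to 5 higher, 7 to 19 large and 4 to 12 small subunit genes lower, and medians of -0.40 to -0.28 over the members, -0.38 to -0.28 over the large and -0.48 to -0.30 over the small subunit. The low counts arose without HFD+allantoin replicate 4, 5 or 6, with 12, 11 and 15 lower and 0, 1 and 1 higher, and the cause was not tested. Of the values of the named genes over all alternatives, 630 kept their direction and side of the threshold, 64 lost and 19 gained a call, and 5 reversed, all in genes that were not called: Mrpl17 (0.065), Mrpl10 (0.12) and Gadd45gip1 (0.061) with library size only, Mrps18c (-0.018 without HFD replicate 2, in a range of -0.018 to 0.14 over the libraries left out), and Dap3 (-0.13) with the trend removed. No paired analysis was possible because the groups share no replicate numbers. With a median standard error of 0.17 on the log2 scale, small changes of single members could not be seen at this depth and number of libraries.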
